A study of Mus musculus with 2 samples.

Results

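Notch and Hedgehog pathway genes were compared between mouse embryoid bodies of genotypes Elongin A-/- and Elongin A+/+. Embryoid bodies are balls of differentiating embryonic stem (ES) cells. Both came from ES cells of the stated genotype, were grown in DMEM/F12 with serum and N2, were treated with 2 µM retinoic acid and were collected at day 4. Elongin A is a subunit of the Elongin complex, which stimulates elongation by RNA polymerase II. Members were chosen by gene symbol among probes that the platform annotation gives exactly 1 symbol: 36 genes of 13697 matched, 25 of the Notch pathway and 11 of the Hedgehog pathway, each with 1 probe. The rule itself uses symbols and no measured values, but it was set with earlier results of these data known. Lfng, Smo, Gli2 and Hhip were among the pathway genes not analysed here.

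There was 1 array per genotype with 32440 probes, so no difference below was tested, and an effect of genotype cannot be told apart from one of the cell line, the culture or the array. The labels do not say whether either ES line was 1 clone or how many bodies were pooled. Intensities are the deposited values after quantile normalisation of the arrays, in arbitrary units whose median was 1.03. That median served as a floor: 9568 genes exceeded it on 1 array or both and are called measured. A value under the floor was raised to it before a difference was taken, so such a difference is a bound, written as "at least". Differences are on the log2 scale, Elongin A-/- minus Elongin A+/+, and the genotypes are those of the labels. The one technical error at hand comes from genes with several probes, whose differences disagreed with an SD of 0.43 over 224 genes above the floor on both arrays. Eloa, the gene of Elongin A itself, had 3.57 on the Elongin A-/- array and 3.87 on the Elongin A+/+ array, but the sources used here do not place its probe inside or outside the deletion, so it checks nothing about the labels. Differences in bulk RNA cannot separate fewer cells of a type from less RNA per cell.

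Notch signalling passes between touching cells. A Delta or Jagged ligand on one cell binds a Notch receptor on its neighbour, the receptor is cut, and its freed intracellular part joins Rbpj and a Mastermind protein to switch on Hes and Hey genes, which encode repressors. In the developing nervous system this keeps progenitors from becoming neurons, and it also acts in vessels and in the segmenting mesoderm. Hedgehog ligands are secreted. They bind Patched together with the coreceptors Boc, Cdon and Gas1, which releases Smoothened and lets Gli factors act on targets, among them Ptch1 and Gli1 themselves, and in the neural tube they pattern the ventral side.

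Most members differed little between the arrays, and the wide differences lay in the Hes and Hey repressors and in the coreceptor Cdon. Of the 36 genes, 27 were measured: 22 lay above the floor on both arrays, 2 on the Elongin A-/- array alone, 3 on the Elongin A+/+ array alone, and 9 lay below it on both. At least 2-fold higher on the Elongin A-/- array were 3 of the 27 measured genes, Cdon, Hey1 and Hes7, where 6.76% of all 9568 measured genes were that much higher. At least 2-fold lower was 1, Dll1, where 5.97% of all measured genes were. The median difference over the 27 was -0.05, beside -0.02 over all measured genes. With the values as deposited the members' median was 0.07, so it has no settled sign. Over the 22 genes above the floor on both arrays the median was -0.03, with 10 differences above 0 and 12 below. Notch and Hedgehog members gave like medians, -0.07 over 20 measured genes and -0.05 over 7. A gene measured on 1 array only must differ in the direction of that array, so counts over measured genes carry that selection.

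**Figure D1:**
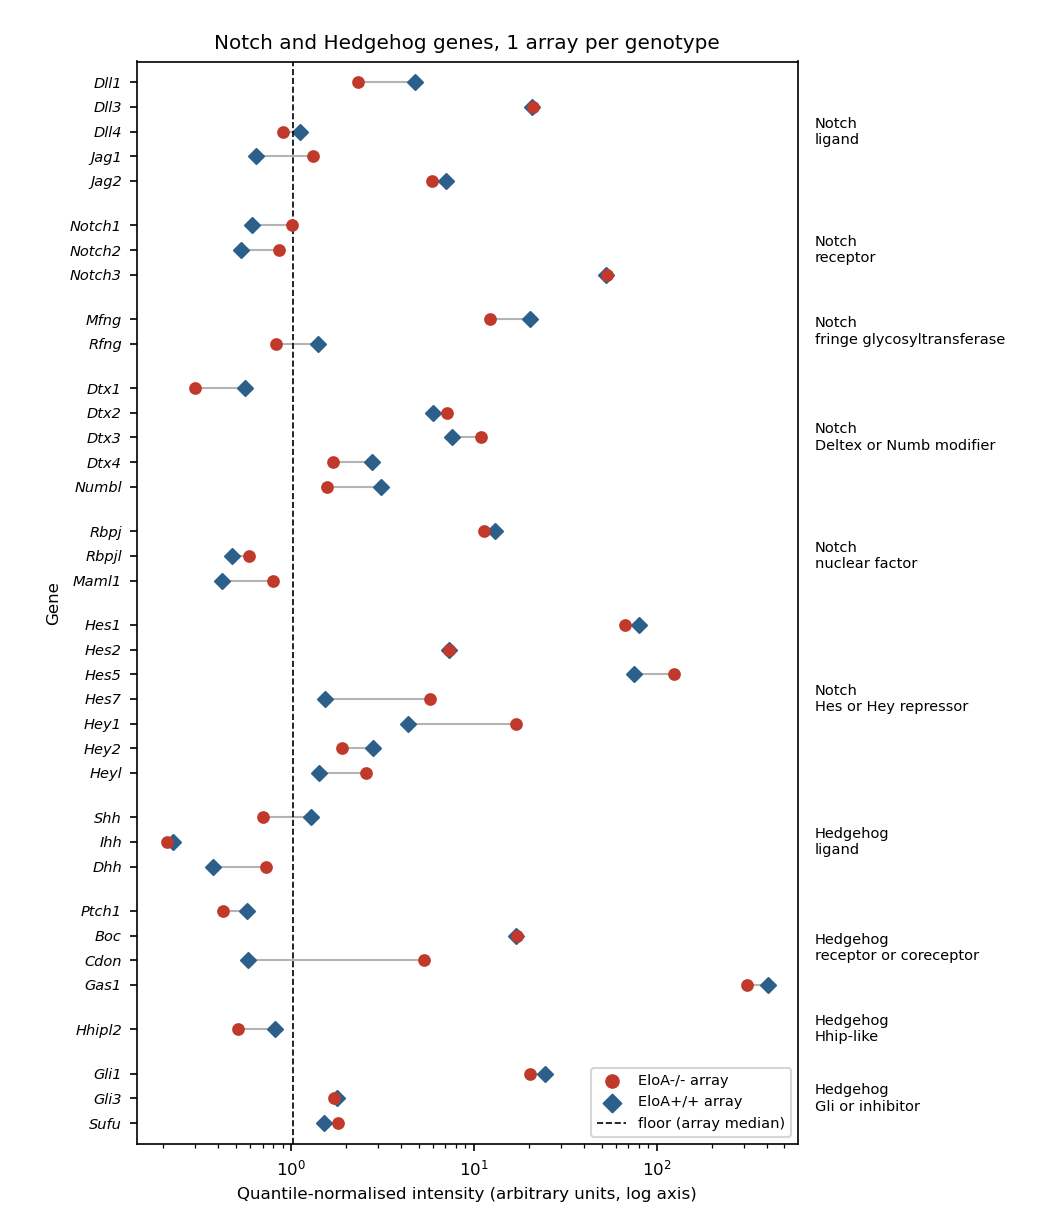
Quantile-normalised intensity of each of the 36 genes (log axis, arbitrary units) on the Elongin A-/- array (red circles) and the Elongin A+/+ array (blue diamonds), grouped by role, with the floor of 1.03 as a dashed line. Most pairs lie close together, and the long lines belong to Cdon (5.37 Elongin A-/-, 0.583 Elongin A+/+), Hey1 (16.9 Elongin A-/-, 4.35 Elongin A+/+) and Hes7 (5.80 Elongin A-/-, 1.53 Elongin A+/+).

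Among the Notch ligands, Dll1 was lower on the Elongin A-/- array, and the others were within 2-fold. Dll1, the Delta ligand that nascent neurons present to neighbouring progenitors, had 2.33 on the Elongin A-/- array and 4.76 on the Elongin A+/+ array, a difference of -1.03, or 2.04-fold. It sat only just past 2-fold, and it was within 2-fold under each other scaling, at -0.88 with the values as deposited, at -0.95 with centring and closest to 2-fold with a loess trend removed. Dll3, a divergent ligand that in mice does not activate Notch on neighbouring cells, had 21.1 on the Elongin A-/- array and 20.9 on the Elongin A+/+ array. Jag2 had 5.92 on the Elongin A-/- array and 7.01 on the Elongin A+/+ array, a difference of -0.24. The other ligands hovered about the floor. Jag1 had 1.33 on the Elongin A-/- array and 0.642, below the floor, on the Elongin A+/+ array, a bound of 0.37 that became 1.05 with no floor. Dll4, a ligand best known from arterial endothelium, had 0.901, below the floor, on the Elongin A-/- array and 1.12 on the Elongin A+/+ array.

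One receptor of the 3 on the array was measured. Notch3 had 53.7 on the Elongin A-/- array and 52.6 on the Elongin A+/+ array, a difference of 0.03, well inside the disagreement between probes. Notch1 had 1.02 on the Elongin A-/- array and 0.613 on the Elongin A+/+ array, both below the floor. Notch2 had 0.856 on the Elongin A-/- array and 0.535 on the Elongin A+/+ array, below it too. Those probes give no usable level, and a value under the floor does not show that a gene is silent.

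The fringe enzymes, which add sugars to Notch and so shift its preference between Delta and Jagged ligands, were both lower on the Elongin A-/- array without reaching 2-fold. Mfng had 12.3 on the Elongin A-/- array and 20.3 on the Elongin A+/+ array, a difference of -0.72. Rfng had 0.827, below the floor, on the Elongin A-/- array and 1.40 on the Elongin A+/+ array, at least 1.36-fold lower. Rfng is a gene of chromosome 11, over which the median difference was 0.41 (803 measured genes). With each chromosome's median removed its difference was -0.86.

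Modifiers of the receptor went in both directions. Numbl, an adaptor related to Numb that restrains Notch in neural progenitors, had 1.58 on the Elongin A-/- array and 3.10 on the Elongin A+/+ array, 1.97-fold lower and so just short of 2-fold. Deltex proteins are ubiquitin ligases that bind the intracellular part of Notch. Dtx4 had 1.69 on the Elongin A-/- array and 2.79 on the Elongin A+/+ array, a difference of -0.72. Dtx3 was on the other side, with 11.0 on the Elongin A-/- array and 7.62 on the Elongin A+/+ array, a difference of 0.53. Dtx2 had 7.12 on the Elongin A-/- array and 5.96 on the Elongin A+/+ array, a difference of 0.26, and Dtx1 was below the floor on both arrays. In the nucleus, Rbpj, the DNA-binding factor of the pathway, had 11.4 on the Elongin A-/- array and 13.1 on the Elongin A+/+ array, a difference of -0.20. Maml1, a Mastermind coactivator, and Rbpjl, an Rbpj relative known from the pancreas, were below the floor on both.

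Among the 20 measured Notch members the widest differences were those of the Hes and Hey genes Hey1 and Hes7, and the family was split in direction. All 7 were above the floor on both arrays: 4 were higher on the Elongin A-/- array, 2 of them at least 2-fold, and 3 were lower. Their median was 0.72, and between 0.16 and 0.80 under the other settings. Hey1, a repressor active in vessels and mesoderm, had 16.9 on the Elongin A-/- array and 4.35 on the Elongin A+/+ array, a difference of 1.96, or 3.89-fold. Hes7, the repressor whose pulses drive somite segmentation, had 5.80 on the Elongin A-/- array and 1.53 on the Elongin A+/+ array, a difference of 1.92, or 3.80-fold. Of all measured genes 1.25% had a difference as high as that of Hey1 and 1.31% one as high as that of Hes7. Hey1 stayed between 1.70 and 2.11 under all 9 other settings. Hes7 lies on chromosome 11 and was at 1.51 with chromosome medians removed. With the floor at the 75th percentile, which is above its Elongin A+/+ value, its bound was 0.16.

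Hes5, a main effector of Notch in neural progenitors, had 125 on the Elongin A-/- array and 75.6 on the Elongin A+/+ array, a difference of 0.72. Heyl, a relative known from vascular smooth muscle, had 2.56 on the Elongin A-/- array and 1.42 on the Elongin A+/+ array, a difference of 0.85. On the other side lay Hes1, a broadly used Notch target, with 66.9 on the Elongin A-/- array and 80.3 on the Elongin A+/+ array, a difference of -0.26. Hey2, the paralogue of Hey1 in vessels and heart, had 1.91 on the Elongin A-/- array and 2.82 on the Elongin A+/+ array, a difference of -0.56. Hey1 and Hey2 thus had opposite signs, as did Hes5 and Hes1. Hes2 had 7.29 on the Elongin A-/- array and 7.35 on the Elongin A+/+ array, and its sign turned under 4 of 9 other settings.

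Promoters of this family are shown because Hey1 and Hes7 had the widest differences among the Notch members and Hes and Hey genes are known targets of Rbpj. RefSeq sequences on GRCm38.p6, from 250 bases before to 50 after the annotated start, were found for 26 of the 36 genes, among them Hes7 (chr11:69120203-69120502, plus strand), Hes5 (chr4:154960673-154960972, plus strand) and Hey2 (chr10:30842734-30843033, minus strand). Promoters of Hey1, Heyl, Hes1, Hes2, Mfng, Dtx3, Dtx4, Shh, Boc and Gli1 were not analysed here. Capitals mark the Rbpj core motif, TGGGAA, or TTCCCA where it lies on the other strand.
Hes7: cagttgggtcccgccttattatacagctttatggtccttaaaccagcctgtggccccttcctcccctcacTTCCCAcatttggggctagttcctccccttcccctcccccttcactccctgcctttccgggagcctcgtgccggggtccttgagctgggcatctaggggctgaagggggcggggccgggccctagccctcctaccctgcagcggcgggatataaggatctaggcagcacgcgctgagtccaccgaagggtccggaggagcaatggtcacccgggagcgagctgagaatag
Hes5: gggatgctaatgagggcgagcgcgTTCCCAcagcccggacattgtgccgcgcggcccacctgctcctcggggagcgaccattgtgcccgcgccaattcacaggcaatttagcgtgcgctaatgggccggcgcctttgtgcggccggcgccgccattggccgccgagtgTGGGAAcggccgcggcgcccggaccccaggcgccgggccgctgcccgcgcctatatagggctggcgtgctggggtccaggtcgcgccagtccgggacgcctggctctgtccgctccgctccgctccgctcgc
Hey2: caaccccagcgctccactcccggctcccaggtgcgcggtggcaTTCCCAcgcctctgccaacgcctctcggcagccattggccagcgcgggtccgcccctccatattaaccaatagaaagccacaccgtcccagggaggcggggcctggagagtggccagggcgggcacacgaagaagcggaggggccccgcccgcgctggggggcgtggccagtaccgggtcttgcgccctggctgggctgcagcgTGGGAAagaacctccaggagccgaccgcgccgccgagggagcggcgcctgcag
The motif begins 180 bases before the start in Hes7, 226 and 82 bases before it in Hes5, and 207 and 3 bases before it in Hey2. The 3 genes hold it whether they were higher on the Elongin A-/- array, as Hes7 and Hes5 were, or lower, as Hey2 was. Over all members the motif was in 9 of 29 promoters (31.0%), beside 25.6% of 32851 promoters of that length. The Gli motif GACCACCCA, searched on both strands, was in 0 of the 29, beside 0.253% of all. CACGTG, the E-box that Hes and Hey proteins can bind, was in 0 of the 29, beside 7.15%, and CACNAG, the N-box bound by Hes proteins, in 14 of the 29 (48.3%), beside 42.5%. A match of letters does not show a binding site.

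**Figure D2:**
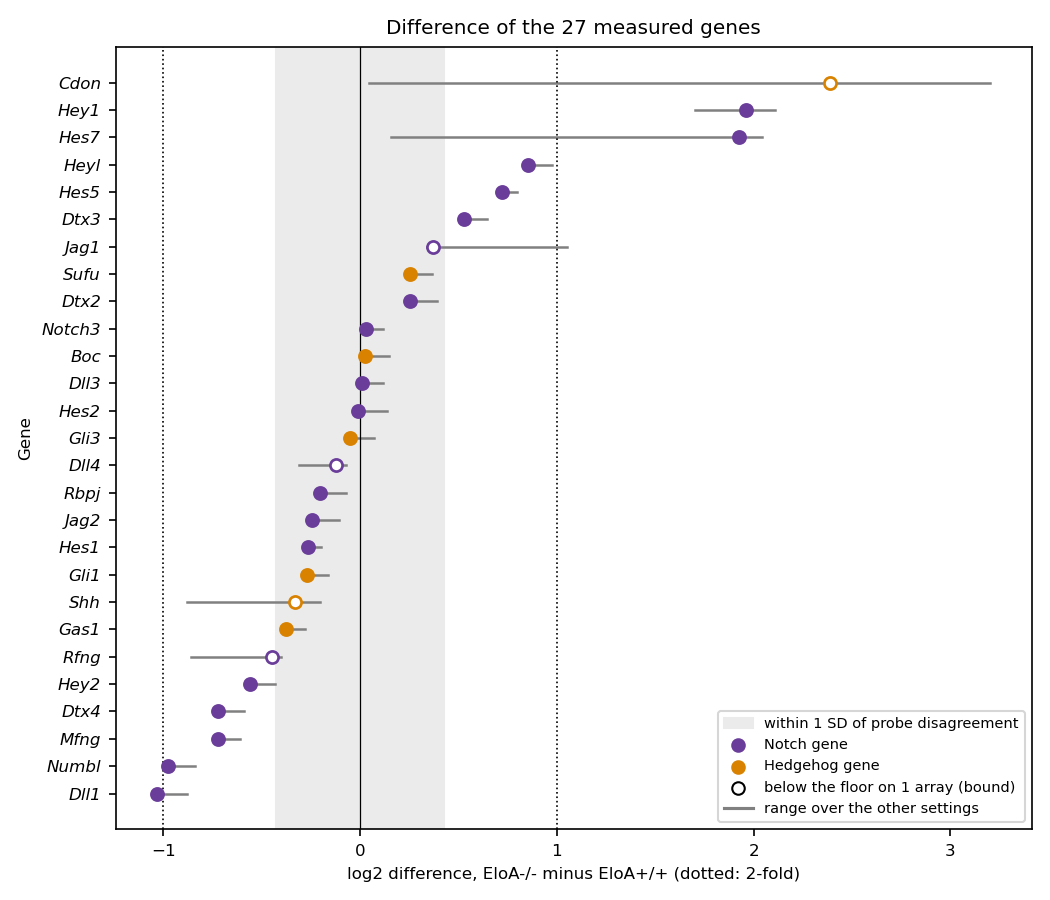
Log2 difference (Elongin A-/- minus Elongin A+/+) of the 27 measured genes, with the range over the other settings as a grey line, Notch genes in purple, Hedgehog genes in orange, bounds as open circles and 1 SD of probe disagreement (0.43) as a grey band. Cdon, Hey1 and Hes7 lie beyond the 2-fold line on the right, and the lines of Cdon and Hes7 reach back to 0.05 and 0.16 where the floor was raised to the 75th percentile.

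Hedgehog ligands were at or under the floor. Shh had 0.702, below the floor, on the Elongin A-/- array and 1.29 on the Elongin A+/+ array, at least 1.26-fold lower, and its difference was -0.88 with no floor. Ihh and Dhh were below the floor on both arrays. Ptch1, the receptor and a target of the pathway, had 0.423 on the Elongin A-/- array and 0.575 on the Elongin A+/+ array, both below the floor.

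Of the coreceptors, Cdon was higher on the Elongin A-/- array, while Boc and Gas1 were within 2-fold. Cdon had 5.37 on the Elongin A-/- array and 0.583, below the floor, on the Elongin A+/+ array, at least 5.23-fold higher, a bound of 2.39. Among all measured genes 0.721% had a difference that high, and 24.5% of the 1031 genes above the floor on the Elongin A-/- array alone had a bound of at least 2-fold. The difference of Cdon was 3.20 with no floor, and its bound was 0.05 under a floor at the 75th percentile. Boc, which is related to Cdon, had 17.3 on the Elongin A-/- array and 16.9 on the Elongin A+/+ array, a difference of 0.03. Gas1, a membrane-anchored coreceptor, had 313 on the Elongin A-/- array and 407 on the Elongin A+/+ array, a difference of -0.38.

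The Gli factors and their inhibitor differed by less than the disagreement between probes. Gli1, an activator and a target of the pathway, had 20.4 on the Elongin A-/- array and 24.5 on the Elongin A+/+ array, a difference of -0.27. Gli3, which acts mainly as a repressor, had 1.73 on the Elongin A-/- array and 1.79 on the Elongin A+/+ array, and its sign turned when chromosome medians were removed and in the deposited values. Sufu, which holds Gli factors in the cytoplasm, had 1.81 on the Elongin A-/- array and 1.52 on the Elongin A+/+ array, a difference of 0.26. Hhipl2, named for its likeness to the Hedgehog-binding protein Hhip, was below the floor on both arrays.

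Dim genes spread more than bright ones, so the members were also read against genes of like level. Genes above the floor on both arrays were divided by mean level into 4 classes of equal size. In the dimmest class, with mean intensities of 1.04 to 3.57, the 5th and 95th percentiles of the difference were -1.27 and 1.24. In the brightest class they were -0.64 and 0.72. Of the 22 members above the floor on both arrays, 20 lay inside these percentiles of their own class, and Hey1 and Hes7 lay above them. In the next class up, which holds Hey1, 6.96% of genes were at least 2-fold higher, and in the dimmest class, which holds Hes7, 9.56% were. Dll1 also lay in the dimmest class, where 9.77% of genes were at least 2-fold lower, and it lay inside the percentiles. Hes5, in the brightest class, lay just under its 95th percentile.

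**Figure D3:**
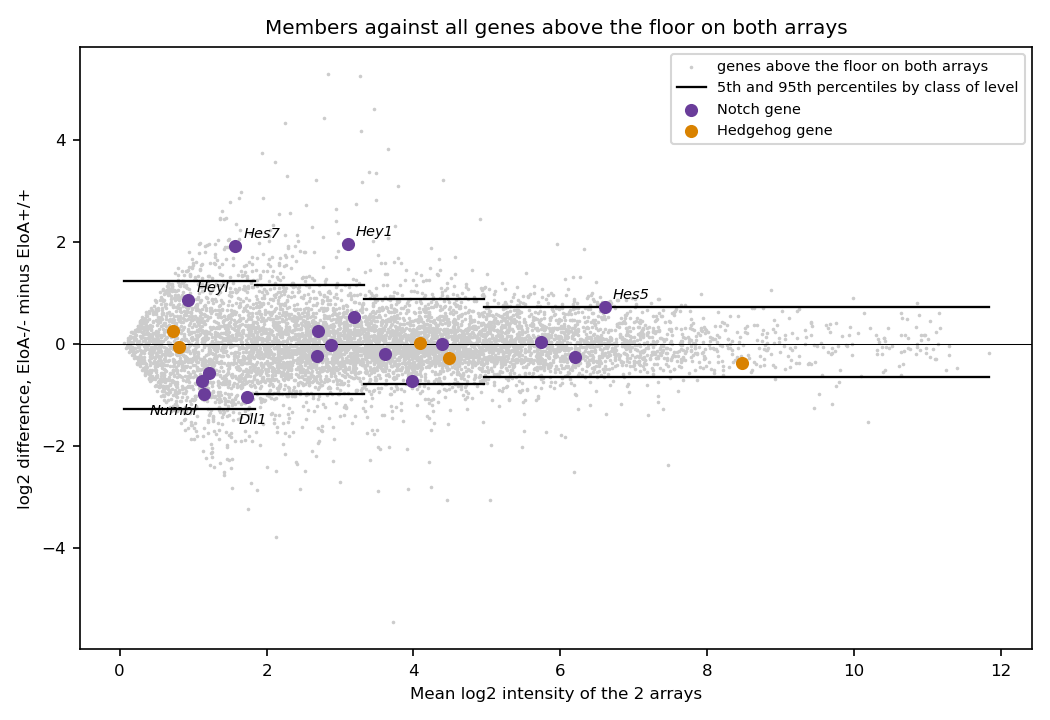
Log2 difference (Elongin A-/- minus Elongin A+/+) against mean log2 intensity for the 7529 genes above the floor on both arrays (grey), with 22 members in purple (Notch) and orange (Hedgehog) and black lines at the 5th and 95th percentiles of each class of level. Hey1 (1.96) and Hes7 (1.92) lie above the lines, Hes5 (0.72) at the line and Dll1 (-1.03) inside.

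Other genes of the Notch pathway included a few that were at least 2-fold lower on the Elongin A-/- array, among them Adam10, Ncstn and Nedd4. Of 38 listed genes with a named probe 35 were measured, 1 at least 2-fold higher (2.86%) and 5 at least 2-fold lower (14.3%). The shares over all measured genes were 6.76% higher and 5.97% lower. Of the 28 listed genes above the floor on both arrays, 1 was at least 2-fold higher and 3 at least 2-fold lower. The median of the 35 was -0.16. The median lay between -0.19 and -0.10 under the other settings, while the count at least 2-fold lower was 9 with no floor and 2 with it raised to the 75th percentile. Among 9 measured genes of Notch glycosylation and cleavage, 8 had differences below 0, 2 of them at least 2-fold, with a median of -0.32, where 51.6% of all measured genes were below 0. The sign of 3 of the 8, Poglut1, Adam10 and Ncstn, was set by their being above the floor on the Elongin A+/+ array alone. Of the 6 genes above it on both arrays 5 were below 0 and 0 reached 2-fold lower. Psenen (-0.03), Aph1a (-0.16) and Adam17 (-0.31) were inside the disagreement between probes, and Furin (-0.49) and Aph1b (-0.997) were outside it. Furin had 20.4 on the Elongin A-/- array and 28.6 on the Elongin A+/+ array. Aph1b, a subunit of gamma-secretase, came close to 2-fold with 4.37 on the Elongin A-/- array and 8.73 on the Elongin A+/+ array. Adam10, the protease that makes the first cut after ligand binding, had 0.968, below the floor, on the Elongin A-/- array and 3.39 on the Elongin A+/+ array, at least 3.30-fold lower. Ncstn, the nicastrin subunit of gamma-secretase, which makes the next cut, had 0.836, below the floor, on the Elongin A-/- array and 2.38 on the Elongin A+/+ array, at least 2.31-fold lower. Of the 1008 genes above the floor on the Elongin A+/+ array alone, 21.8% had a bound of at least 2-fold lower. Adam10 and Ncstn stayed at least 2-fold lower under the 8 other settings that gave a value. Under the floor at the 75th percentile neither was measured. Nedd4, a ubiquitin ligase that acts on endocytosed receptors, was the 1 measured gene of receptor turnover, with 12.4 on the Elongin A-/- array and 27.5 on the Elongin A+/+ array.

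Of 9 measured genes listed as other Notch targets, 1 was at least 2-fold higher and 2 at least 2-fold lower. The shares over all measured genes were 6.76% and 5.97%. Differences were above 0 for 4 of the 9 and below 0 for 5, with a median of -0.54. This median was between -0.58 and -0.10 under the other settings. Sox9 was higher, with 6.01 on the Elongin A-/- array and 2.03 on the Elongin A+/+ array. It lies on chromosome 11, over which the median difference was 0.41. Fabp7, a fatty acid binding protein of radial glia, had 7.37 on the Elongin A-/- array and 30.6 on the Elongin A+/+ array. Neurog2, a proneural factor that Hes proteins repress and that in mice switches on Dll1, had 2.42 on the Elongin A-/- array and 8.07 on the Elongin A+/+ array. Under a floor at the 75th percentile the bounds of Sox9 and Neurog2 were 0.21 and -0.63, both within 2-fold. Nrarp, a feedback inhibitor induced by Notch that was looked at after its value was seen, had 21.2 on the Elongin A-/- array and 13.7 on the Elongin A+/+ array, a difference of 0.63. Ccnd1 and Id1, also looked at after their values were seen, were on the other side. Ccnd1 had 52.7 on the Elongin A-/- array and 105 on the Elongin A+/+ array, a difference of -0.998. Id1 had 54.1 on the Elongin A-/- array and 83.0 on the Elongin A+/+ array, a difference of -0.62. Of 5 measured genes of other ligands and ligand endocytosis, 0 were 2-fold apart, though under other settings up to 1 was higher and up to 1 lower. Dlk1, a membrane protein related to Delta, had 43.4 on the Elongin A-/- array and 21.9 on the Elongin A+/+ array, a difference of 0.99 that passed 2-fold under 3 of 9 other settings. Dner, another such protein, had 0.701, below the floor, on the Elongin A-/- array and 1.67 on the Elongin A+/+ array. Nuclear cofactors lay close together, with 0 of 11 at least 2-fold apart. Kat2a, a histone acetyltransferase, had the widest difference there, 0.84, with 38.1 on the Elongin A-/- array and 21.3 on the Elongin A+/+ array, and 0.43 with chromosome medians removed. Ctbp1, a corepressor, followed with 65.0 on the Elongin A-/- array and 74.0 on the Elongin A+/+ array.

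Other Hedgehog pathway genes were balanced in their counts past 2-fold, while their lists differed in the sign of the median. Of 53 with a named probe 44 were measured, with a median of 0.06. At least 2-fold higher were 3 and at least 2-fold lower were 3 (6.82% each), beside 6.76% and 5.97% of all measured genes. The higher ones numbered 6 with the values as deposited and 1 under a floor at the 75th percentile, and the lower ones 6 with no floor and 0 under the raised one. Genes of ligand processing and release had a median of -0.43 over 5 measured, 4 below 0 and 1 above. This median was between -0.57 and -0.35 under the other settings. Hedgehog targets other than members had a median of -0.33 over 12 measured, 7 below 0 and 5 above. That median was between -0.35 and -0.15 under the other settings. Ventral neural targets of Hedgehog, looked at after their values were seen, were dim and differed in direction. Nkx2-2, Nkx2-9 and Nkx6-2 were below the floor on both arrays, and Nkx6-1 had 1.27 on the Elongin A-/- array and 1.61 on the Elongin A+/+ array. Olig2 had 1.53 on the Elongin A-/- array and 0.902, below the floor, on the Elongin A+/+ array. Foxa2 had 1.56 on the Elongin A-/- array and 2.65 on the Elongin A+/+ array. Foxc2, a mesodermal forkhead factor, had 43.0 on the Elongin A-/- array and 13.1 on the Elongin A+/+ array. Its difference was 1.71, and 1.28 with chromosome medians removed. Wnt5a, a secreted ligand, had 3.32 on the Elongin A-/- array and 0.419, below the floor, on the Elongin A+/+ array, at least 3.23-fold higher. Bcl2, an inhibitor of apoptosis, had 0.490, below the floor, on the Elongin A-/- array and 2.26 on the Elongin A+/+ array, at least 2.20-fold lower, but with the mean over its probes the bound was -0.23.

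Among kinases and ubiquitin ligases that act on Gli, Prkaca, a catalytic subunit of protein kinase A, had 3.33 on the Elongin A-/- array and 1.32 on the Elongin A+/+ array. It was 2.53-fold higher, and it was within 2-fold, at 0.91, with chromosome medians removed. Prkaca lies on chromosome 8, where the median was 0.43. The 13 measured genes of this list had a median of 0.41, and between 0.02 and 0.47 under the other settings. Of its genes above 0, Prkar1a, Csnk1d, Fbxw11, Spop and Arrb2 lie on chromosome 11, where the median was also 0.41. Arrb1, a beta-arrestin, had 0.910, below the floor, on the Elongin A-/- array and 2.87 on the Elongin A+/+ array, at least 2.80-fold lower. Gpc4, a glypican, had 2.03 on the Elongin A-/- array and 4.31 on the Elongin A+/+ array. Gpc3, another glypican, was looked at after its value was seen. It had 52.5 on the Elongin A-/- array and 103 on the Elongin A+/+ array, a difference of -0.97. Of 14 measured genes of the cilium, the organelle in which Hedgehog signals are read, 11 had differences above 0, beside 48.4% of all measured genes, and 0 reached 2-fold. For 1 of the 11 the sign was set by its being above the floor on the Elongin A-/- array alone, and the median of the 14 was 0.10. Evc2, a ciliary protein, had 3.12 on the Elongin A-/- array and 1.67 on the Elongin A+/+ array, a difference of 0.90 that passed 2-fold under 2 of 8 other settings. Ift172, a subunit of intraflagellar transport, had 9.47 on the Elongin A-/- array and 5.95 on the Elongin A+/+ array.

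Markers of several cell types also differed between the arrays, and their part in the differences of the members was not tested. Endothelium is a type in which Hey1, Hey2 and Dll4 are used. Endothelial markers were at least 2-fold higher for 10 of 11 measured, beside 6.76% of all measured genes. For 6 of the 11 the direction was set by their being above the floor on the Elongin A-/- array alone. Of all genes of that kind 24.5% had a bound of at least 2-fold. Of the 5 above it on both arrays, 4 were at least 2-fold higher. The summed intensity over 13 genes was 202 on the Elongin A-/- array and 19.0 on the Elongin A+/+ array. Kdr, the VEGF receptor, had 54.4 on the Elongin A-/- array and 2.23 on the Elongin A+/+ array, while Cdh5 and Tie1 were below the floor on both. Under a floor at the 75th percentile 5 of 9 endothelial markers were at least 2-fold higher. Among the members used in vessels, Hey1 was higher on the Elongin A-/- array, while Hey2 (-0.56) and Dll4 (a bound of -0.12) were lower. Presomitic and somite markers, the tissue in which Hes7 is used, had a summed intensity over 8 genes of 54.6 on the Elongin A-/- array and 29.5 on the Elongin A+/+ array. Of these, Tbx6, Msgn1, Mesp1 and Mesp2, which define presomitic mesoderm, were below the floor on both arrays, and Meox1, a somite factor, had 38.6 on the Elongin A-/- array and 17.8 on the Elongin A+/+ array. Mesenchyme markers summed to 186 on the Elongin A-/- array and 67.7 on the Elongin A+/+ array over 7 genes. Of these, 3 were at least 2-fold higher, 2 of them above the floor on both arrays, beside 6.76% of all measured genes. Differences were above 0 for 5 of the 7 mesenchyme markers and below 0 for 2, Col1a2 and, as a bound, Pdgfra. Col3a1, a fibrillar collagen, made up most of both sums, with 152 on the Elongin A-/- array and 41.8 on the Elongin A+/+ array. The other 6 genes summed to 33.2 on the Elongin A-/- array and 25.9 on the Elongin A+/+ array.

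Markers of the neural lineage, in which Dll1, Numbl and Hes5 are used, differed in both directions, with more of them lower on the Elongin A-/- array. Differences were below 0 for 8 of 10 measured progenitor markers and 7 of 8 measured neuronal markers, where 51.6% of all measured genes were. The sign of Sox1, a progenitor marker, and Nefm, a neuronal one, was set by their being above the floor on the Elongin A+/+ array alone. That of Dcx was set by its being above it on the Elongin A-/- array alone. Neural progenitor markers were at least 2-fold lower for 4 of 10 measured, 3 of them above the floor on both arrays, beside 5.97% of all measured genes. Progenitor markers summed to 105 on the Elongin A-/- array and 192 on the Elongin A+/+ array. Neuronal markers were at least 2-fold lower for 3 of 8 measured and summed to 237 on the Elongin A-/- array and 349 on the Elongin A+/+ array over 9 genes. Fabp7 and Neurog2 are among those 4 progenitor markers and are also the 2 genes at least 2-fold lower in the Notch target list, so those counts are not separate. The raised floor left 2 of 8 progenitor markers and 1 of 6 neuronal markers at least 2-fold lower. Sox2, a progenitor factor, had 39.5 on the Elongin A-/- array and 72.2 on the Elongin A+/+ array. Pax6 and Pax7, patterning factors of the neural tube, were on the other side, as was Hes5. Pax6 had 12.9 on the Elongin A-/- array and 9.32 on the Elongin A+/+ array, and Pax7 had 6.62 on the Elongin A-/- array and 4.14 on the Elongin A+/+ array. Of the neuronal markers, Dcx had 1.41 on the Elongin A-/- array and 0.511, below the floor, on the Elongin A+/+ array, and Tubb3, a neuronal tubulin, had 168 on the Elongin A-/- array and 179 on the Elongin A+/+ array. Floor plate and notochord markers, the sources of Shh in the embryo, had 0 of 5 measured genes at least 2-fold apart, and summed to 22.2 on the Elongin A-/- array and 24.5 on the Elongin A+/+ array over 6 genes. Endoderm markers had 1 of 5 at least 2-fold higher and 1 lower, with sums of 24.1 on the Elongin A-/- array and 20.7 on the Elongin A+/+ array over 9 genes. Pluripotency markers had 2 of 5 higher and 1 lower, with sums of 31.3 on the Elongin A-/- array and 28.9 on the Elongin A+/+ array over 6 genes. Of all measured genes 6.76% were at least 2-fold higher.

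**Figure D4:**
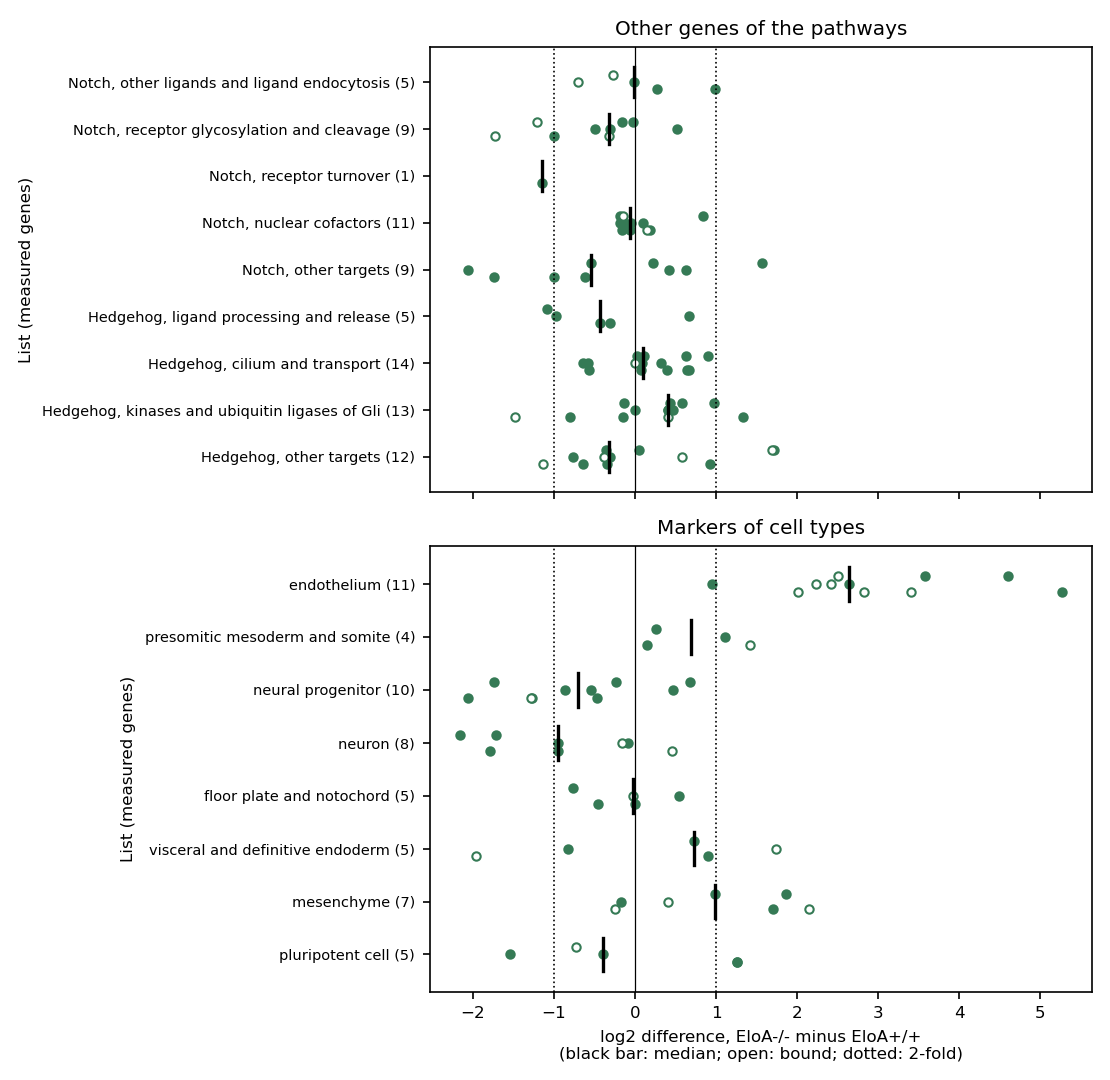
Log2 difference (Elongin A-/- minus Elongin A+/+) of measured genes in lists of other pathway genes (top) and cell type markers (bottom), with the median of each list as a black bar, bounds as open circles and 2-fold as dotted lines. Endothelial markers lie to the right (median 2.64) and neural progenitor (-0.71) and neuronal (-0.95) markers to the left. Medians of the pathway lists run from -1.15 (receptor turnover, 1 gene) to 0.41 (kinases and ubiquitin ligases of Gli). The median of the Gli kinase and ligase list was between 0.02 and 0.47 under the other settings.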

How the data were processed

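Intensities of 32440 probes were deposited on a linear scale, with medians of 1.03 on the Elongin A-/- array and 1.02 on the Elongin A+/+ array. Digoxigenin-labelled cRNA was transcribed from 1 µg of RNA and read by chemiluminescence, per the labels. For the authors' background correction, scaling and filters, the sources used here give nothing, and scanner values and detection calls were not used. Genotypes were taken from the sample titles.

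From the deposited intensities, log2 values were quantile normalised, because the 10th, 25th and 75th percentiles differed by -0.16, -0.12 and 0.15 between the arrays, past a limit of 0.1. Probes with 1 gene symbol (14253 probes, 13697 genes) were named from the platform annotation, 243 had several symbols and 17944 had none. Where a gene had several probes, the brightest on average stood for it. The floor was the array median. Size was counted at 2-fold with no p-value. Other settings were 3 scalings, 3 floors, 2 ways of treating probes, removal of chromosome medians and counts at 1.5-fold and 3-fold. All members were named, and of each other pathway list the genes at least 2-fold apart or, with none, the 2 widest apart. Members, lists and settings were chosen with earlier results of these data known. Chromosomes come from RefSeq on GRCm38.p6. The steps were tested on simulated data with Python 3.11.15, numpy 2.4.6, pandas 2.3.3 and statsmodels 0.14.6. The number of arrays limits the precision.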

Additional observations from a re-analysis of the deposited data

How the results depend on the processing

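Under 9 other settings the 27 measured genes gave 232 differences, of which 224 moved by less than the probe disagreement of 0.43 and 8 by more, and 25 genes kept their sign, the exceptions being Hes2 and Gli3. The count of genes at least 2-fold higher, 3, stood at 1 with a floor at the 75th percentile, at 5 when counted at 1.5-fold (15.8% of all measured genes), and at 3 or 4 otherwise. The count at least 2-fold lower, 1, was 0 with the values as deposited, after centring, after removal of the loess trend, under the 75th percentile floor and when counted at 3-fold, and 4 when counted at 1.5-fold (14.8% of all measured genes), and 1 otherwise. The members' median ran from -0.05 to 0.07, so neither it nor the Notch (-0.07 to 0.03) or Hedgehog (-0.12 to 0.07) median has a direction. A raised floor shrinks bounds by its construction, while the cause of the other shifts was not tested. Taking the mean over probes or genes with 1 probe changed no member, since each has 1 probe. Probe disagreement, whose settings were added after the data were seen, was 0.82 with no floor and between 0.34 and 0.55 with the others. No paired analysis was possible because there was 1 array per genotype, and for the same reason no replicate could be left out.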
